A study of Mus musculus with 9 samples.

Results

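The nuclear-encoded genes of the mitochondrial respiratory chain were followed through brain RNA from 9 mice. Genes were taken by whole name: those called Ndufa, Ndufb, Ndufc, Ndufs or Ndufv with a number, and the Sdh genes a to d. To these came Uqcr or Atp5 followed only by letters and numbers, and Cox4 to Cox8 followed by a letter and at most a number. Of 38621 genes in the table, 81 had such a name, and 79 of these had an RPKM of 1 or more in 3 or more of the mice. RPKM is the number of reads on a gene, scaled by the length of its exons and by the reads counted in the sample. Genes were assigned to a complex by the start of the name alone, which need not be the place of each protein. Complex I had 36 of the 79 genes, complex II had 4, complex III had 8, complex IV had 14, and complex V had 17. All mice were C57BL/6, and each group had 3. Mice of the ICH group carried a model of intracerebral hemorrhage, made by placing 30 μl of their own blood in the brain. Mice of the feb group received febuxostat, an inhibitor of xanthine oxidase, by gavage at 50 mg/kg on each of 5 days and then the blood. The sham mice are untreated according to the sample labels, whereas the methods describe an injection of saline. Febuxostat was not given to any group without blood, and neither the dissected part of the brain nor the time of collection is stated for the sequenced samples.

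The respiratory chain sits in the inner mitochondrial membrane. Complex I takes electrons from NADH and complex II takes them from succinate, complex III passes them from ubiquinol to cytochrome c, and complex IV hands them to oxygen. Complexes I, III and IV pump protons as they do so, and complex V, the ATP synthase, makes ATP as the protons flow back. Neurons depend on this ATP for ion pumping and synaptic transmission. Most subunits are made from nuclear genes and imported, while a small core is encoded by mitochondrial DNA, so both genomes have to supply each of complexes I, III, IV and V. The nuclear genes lie on separate chromosomes, here on 19 of them, and many have promoters that bind the transcription factors NRF1, GABP (an ETS factor) and YY1.

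The promoters were looked at first because the genes, although scattered, are known to be expressed together. RefSeq (GRCm38.p6) gave a promoter for 66 of the 79 genes, from 250 bases before the start of transcription to 50 after it. The letters searched on both strands were GCGCA, any base and GCGC for NRF1, CCGGAAG for ETS factors and AAGATGGC for YY1, and the 3 motifs do not contain each other. NRF1 letters were in 16 promoters of the 66 (24.2%) and in 6.60% of the 17492 promoters of protein-coding genes. ETS letters were in 15 (22.7%) against 11.9%, and YY1 letters in 10 (15.2%) against 3.22%. Among 22 genes of the 66 that were lower in ICH than in sham mice by the test described further on, NRF1 letters were in 27.3%, ETS letters in 18.2% and YY1 letters in 22.7%, and among the other 44 genes in 22.7%, 25.0% and 11.4%. These shares describe letters in a window and were not tested. Shown here, to let the motifs be seen in place, are 120 bases that end at the RefSeq start, or at most 10 bases inside the gene as the table places it, for 6 genes with lower levels in ICH mice, 5′ to 3′ on the strand of the gene, with the NRF1 or ETS letters in capitals. The stretches of Atp5k, Ndufa11 and Ndufs5 hold the NRF1 letters, and that of Atp5e holds the ETS letters on its other strand. Those of Ndufs4 and Cox7b hold none of the 3 motifs. Beyond the stretches shown, after the RefSeq start, the promoter of Ndufs4 holds YY1 letters and that of Atp5k holds ETS letters.
Atp5k (chr5:108434439-108434558, minus strand): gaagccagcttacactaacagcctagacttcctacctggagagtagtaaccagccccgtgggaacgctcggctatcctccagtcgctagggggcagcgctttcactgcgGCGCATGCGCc
Ndufa11 (chr17:56717642-56717761, plus strand): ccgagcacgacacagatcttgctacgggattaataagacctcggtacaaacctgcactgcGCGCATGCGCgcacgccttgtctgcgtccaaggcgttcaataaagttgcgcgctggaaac
Ndufs5 (chr4:123718193-123718312, minus strand): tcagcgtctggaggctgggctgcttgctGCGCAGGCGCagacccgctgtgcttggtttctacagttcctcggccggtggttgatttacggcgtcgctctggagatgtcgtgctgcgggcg
Atp5e (chr2:174464102-174464221, minus strand): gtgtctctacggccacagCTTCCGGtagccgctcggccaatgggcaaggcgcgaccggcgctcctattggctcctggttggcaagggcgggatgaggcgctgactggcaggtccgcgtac
Ndufs4 (chr13:114388095-114388214, minus strand): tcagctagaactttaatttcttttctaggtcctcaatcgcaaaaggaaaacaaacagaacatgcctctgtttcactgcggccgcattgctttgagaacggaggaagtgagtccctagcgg
Cox7b (chrX:106015580-106015699, plus strand): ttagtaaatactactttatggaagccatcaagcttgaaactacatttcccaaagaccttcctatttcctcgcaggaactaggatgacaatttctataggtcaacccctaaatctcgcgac

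Between 23065757 and 29538009 reads were counted on genes in each mouse. The mice of a group are labelled only by number, so p-values here measure the spread between these samples. Counting depth was ample for nearly all of the 79 genes, since 73 had at least 100 reads in every mouse, and the lowest count of any of them was 13. The libraries of sham mice 1 and 3 and of feb mouse 2 stood apart from the others in these genes. Of the 79 genes, sham mouse 1 had 64 above their own median over the 9 mice, sham mouse 3 had 64, and feb mouse 2 had 48. The remaining sham mouse had 34, the ICH mice had 15, 22 and 29, and the other feb mice had 27 and 13. Sham mouse 1 alone held the highest value of 39 genes. These 3 libraries also had the largest shares of reads on Rn7s1 and Rn7s2, genes of the 7SL RNA, of 4.32%, 4.65% and 4.68%, but sham mouse 2 was close at 4.12%. The ICH mice had 3.26%, 3.29% and 3.28%, and the other feb mice had 3.49% and 3.42%. The part of this difference in the results below was not tested, and the counts over the 79 genes and over each complex are also given without single mice.

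**Figure D1:**
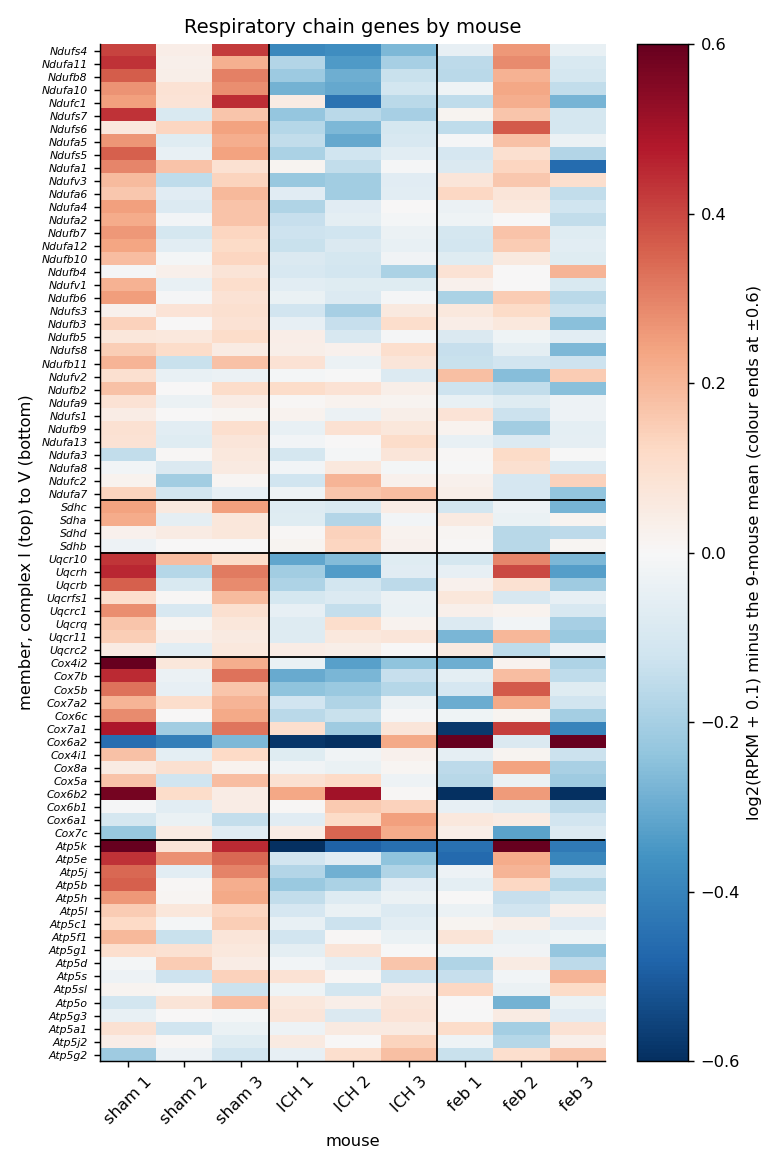
Each line is a gene, 78 of the 79 in all, from complex I at the top to complex V at the bottom and in order of the ICH minus sham difference within a complex, and each column is a mouse. Colour is log2(RPKM + 0.1) minus the mean of the 9 mice, and red runs down the columns of sham mice 1 and 3 and in part of feb mouse 2, while the ICH columns are mostly blue in the upper lines of complexes I, III, IV and V.

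The 79 genes were well expressed, and their RPKM differed widely within a complex. Comparisons between genes also depend on the annotated exon length, by which RPKM divides, from 419 to 8086 bases in the 79 genes. Mean RPKM over the 9 mice ran from 1.38 for Cox6b2, a testis isoform of complex IV, to 177 for Atp5b, the catalytic β subunit of the ATP synthase, with a median of 26.3. Ndufa13, a membrane-arm subunit of complex I, had 161, and Cox4i1, the common isoform of a regulatory complex IV subunit, had 131. By complex, the median of these means was 23.5 for complex I, 18.7 for complex II, 37.1 for complex III, 29.0 for complex IV and 18.2 for complex V. The c subunit of the ATP synthase rotor is made from 3 genes, whose summed levels were small beside that of Atp5b: Atp5g3 had between 12.8 and 14.4 in the 9 mice, Atp5g1 between 2.70 and 3.43, and Atp5g2 between 2.67 and 3.53. The RPKM minimum kept Cox6b2 (between 0.548 and 1.99) and left out Cox8b and Cox7b2, whose highest values were 0.951 and 0.494. RefSeq lists Atp5s and Atp5sl, which the name rule took with complex V, under the symbols Dmac2l and Dmac2. Exons of 22 genes share bases with a gene on the opposite strand and those of 4 with one on the same strand, and since the use of strand in counting is not given in the sources used here, reads of such pairs cannot be told apart.

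Respiratory chain genes were lower in ICH mice than in sham mice. The change was small in most genes, with a median difference of -0.16 in log2(RPKM + 0.1), while the median of all 29025 genes tested was 0.08. At an unadjusted p under 0.05 in limma, 28 of the 79 genes (35.4%) fell and 1 (1.27%), Cox7c, rose, where 4.42% of all genes tested fell and 7.88% rose. In 33 genes (41.8%) every ICH mouse was below every sham mouse, against 6.22% of all genes tested. In 1 gene (1.27%), Sdhb, every ICH mouse was above, against 13.2%. The criterion of the study was p under 0.05 with a fold change over 2 in edgeR, and its calls can differ from those here. By this criterion in limma, no gene of the 79 was called, where 2.53% of all genes tested were. Atp5k came closest, with means that differed by -49.5%. None passed an adjusted p of 0.05 either, which 0.0241% of all genes tested did, and the lowest adjusted p of the 79 was 0.284, for Ndufs4 (limma, Benjamini-Hochberg). In bulk tissue, fewer cells of a type and less RNA per cell cannot be told apart.

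**Figure D2:**
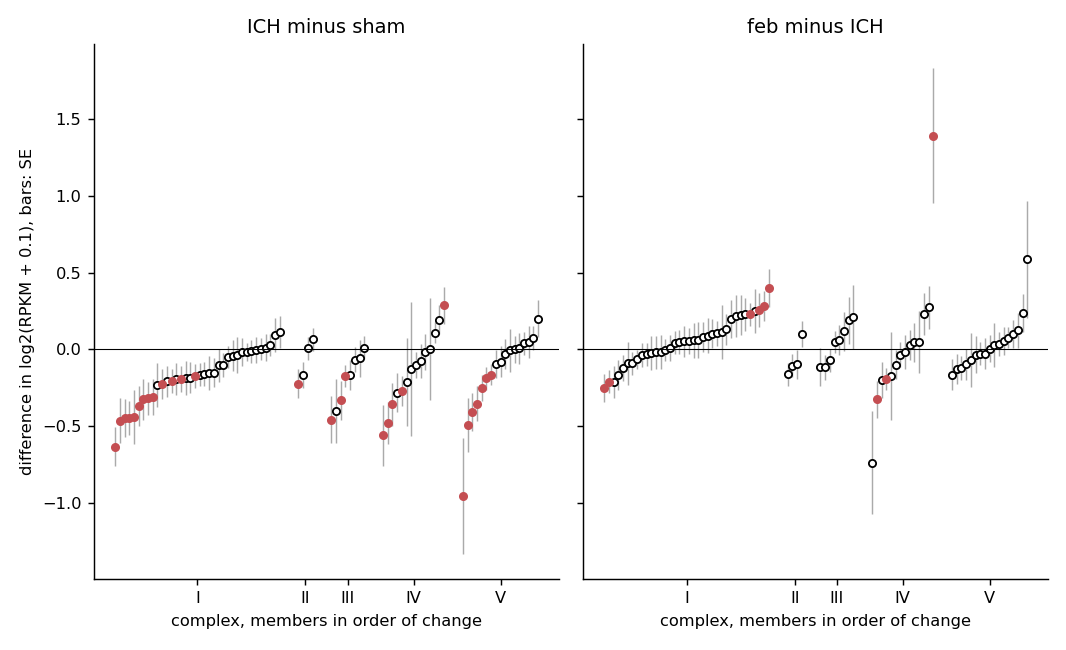
Each point is 1 of the 79 genes, placed by complex and in order of its change, and the vertical axis is the difference in log2(RPKM + 0.1) for ICH minus sham (left) and feb minus ICH (right), with its SE. Filled red points have an unadjusted p under 0.05, of which 28 lie below 0 and 1 above on the left, and 4 below and 5 above on the right.

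In complex I, 13 of 36 genes fell in ICH mice and none rose, and the median difference was -0.17. The count of falls was 5 without sham mouse 1, sham mouse 3 or ICH mouse 2, 6 without ICH mouse 1, and 17 without sham mouse 2. Of all genes tested, 4.42% fell with all mice fitted. That share also moved, to 2.42%, 2.43% and 2.63% without sham mouse 1, sham mouse 3 and ICH mouse 2. It was 4.10% without ICH mouse 1 and 6.61% without sham mouse 2. Ndufs4, an accessory subunit whose loss causes Leigh syndrome, had RPKM values of 43.1, 33.4 and 43.4 in sham mice. ICH mice had 24.8, 25.1 and 26.9, and feb mice had 31.3, 38.9 and 31.4. The sham and ICH values do not overlap, and the ICH values lie closer together than those of either other group. The difference between ICH and sham was -0.63 ± 0.13 (SE, n = 3 mice a group) in log2(RPKM + 0.1). Ndufa10, another accessory subunit, had 50.8, 44.8 and 51.2 in sham mice against 34.6, 34.0 and 39.0 in ICH mice, a difference of -0.45 ± 0.11. Ndufb8, an accessory subunit of the membrane arm, had 18.7, 14.9 and 17.9 against 12.5, 11.8 and 13.2, and shares exon bases with Gm20538 on the same strand. Ndufa11, also of the membrane arm, had 10.7, 8.07 and 9.18 against 6.98, 6.23 and 6.87. In these 3 genes too, every ICH mouse was below every sham mouse. Among the core subunits, which carry the electrons, Ndufs7 fell by 0.37 ± 0.13 on the log2 scale. Ndufs7 holds the last iron-sulfur cluster before ubiquinone. Ndufs1, Ndufs3, Ndufs8, Ndufv1 and Ndufv2 were not called and had differences between -0.16 and -0.01. Among the accessory subunits, Ndufa5, Ndufs5, Ndufc1, Ndufs6, Ndufa2, Ndufv3 and Ndufb10 fell as well. The most abundant, Ndufa13 and Ndufb9, had differences of 0.00 ± 0.07 and -0.00 ± 0.09.

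Complexes II and III share the ubiquinone pool. In complex II, 1 of 4 genes fell in ICH mice, Sdhc, which anchors the enzyme in the membrane. Sdhc had 14.9, 13.1 and 15.0 in sham mice and 11.95, 11.8 and 13.0 in ICH mice, a difference of -0.22 ± 0.09. Sdha, the flavoprotein that oxidizes succinate, was not called at -0.17 ± 0.09, and the iron-sulfur subunit Sdhb had 20.3, 20.7 and 20.7 against 20.9, 22.7 and 21.1. The ranges of Sdhb therefore did not overlap, in the direction opposite to Sdhc, although it was not called (0.07 ± 0.07). Without sham mouse 1 or 3, ICH mouse 1 or 2, or feb mouse 1, none of the 4 was called in limma at an unadjusted p under 0.05, and without sham mouse 2 there were 2. In complex III, 3 of 8 genes fell, none without sham mouse 1 or ICH mouse 1, 1 without sham mouse 3 or ICH mouse 3, and 5 without sham mouse 2. In the order of these 5 mice, 2.42%, 4.10%, 2.43%, 4.44% and 6.61% of all genes tested fell, against 4.42% with all mice. Uqcr10, a small subunit, had 26.4, 22.3 and 21.2 in sham mice and 15.8, 16.3 and 18.6 in ICH mice, a difference of -0.46 ± 0.15. Uqcrb, which lies near the ubiquinone site, and Uqcrfs1, the Rieske iron-sulfur protein, had differences of -0.33 ± 0.13 and -0.17 ± 0.07. The core proteins Uqcrc1 and Uqcrc2 were not called, at -0.17 ± 0.10 and 0.01 ± 0.08.

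In complex IV, 4 of 14 genes fell in ICH mice and 1 rose. The falls numbered 1 without sham mouse 1 or ICH mouse 2, and 2 without sham mouse 3, ICH mouse 1 or ICH mouse 3. Beside these counts, 2.42%, 2.63%, 2.43%, 4.10% and 4.44% of all genes tested fell, in the same order, against 4.42% with all mice. Cox7b, a small subunit that is needed for assembly, had 75.6, 54.0 and 69.4 in sham mice. ICH mice had 44.9, 45.8 and 50.4, and feb mice had 53.2, 63.1 and 49.8. No ICH mouse reached the lowest sham value, and the difference was -0.48 ± 0.14. Cox4i2, a low-level isoform induced by low oxygen, had 3.65, 2.18 and 2.44 against 2.02, 1.64 and 1.74, or -0.56 ± 0.20. Its counts were between 33 and 85 reads in a mouse, so its values are less precise than those of the other genes named here. Cox5b and Cox6c also fell, by 0.36 ± 0.14 and 0.27 ± 0.10 on the log2 scale. Cox7c, another small subunit, was the only gene of the 79 that rose, with 22.1, 26.8 and 24.7 in sham mice and 26.7, 33.0 and 30.2 in ICH mice, whose ranges overlap, and a difference of 0.29 ± 0.12. The common isoform Cox4i1 was not called (-0.10 ± 0.08), nor was Cox5a (-0.02 ± 0.12).

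In complex V, 7 of 17 genes fell in ICH mice and none rose. The falls numbered 2 without sham mouse 1, 3 without sham mouse 3, ICH mouse 1 or ICH mouse 3, and 4 without ICH mouse 2. Shares of all genes tested that fell were 2.42%, 2.43%, 4.10%, 4.44% and 2.63%, in the same order, against 4.42% with all mice. Atp5k, the e subunit that joins ATP synthases into dimers, had the largest fall of the 79 genes. Its RPKM was 59.7, 36.1 and 46.8 in sham mice. ICH mice had 22.5, 24.4 and 25.0, and feb mice had 25.1, 73.2 and 25.5. The ICH mice were all below the sham mice, while the feb group held 2 values just above the ICH range and the highest value of the 9 mice. The difference between ICH and sham was -0.96 ± 0.38, with an adjusted p of 0.388 (limma), and it was called in 4 of the 9 fits that leave out a mouse. Atp5e, the ε subunit of the catalytic head, had 6.38, 5.71 and 6.00 in sham mice and 4.33, 4.48 and 3.96 in ICH mice, or -0.49 ± 0.17. Atp5j (coupling factor 6) and Atp5h (subunit d), both parts of the outer stalk, differed by -0.41 ± 0.12 and -0.25 ± 0.09. Exons of Atp5j share 397 bases with Gabpa on the opposite strand. In the catalytic head, Atp5b had 225, 176 and 204 against 150, 154 and 167, a difference of -0.35 ± 0.11, whereas Atp5a1, the α subunit, had 169, 146 and 154 against 155, 165 and 165 and was not called (0.05 ± 0.10). The γ subunit Atp5c1 and the g subunit Atp5l fell as well, by 0.17 ± 0.07 and 0.19 ± 0.08 on the log2 scale. The c-subunit genes Atp5g1, Atp5g2 and Atp5g3 were not called, with differences of -0.08, 0.20 and 0.04.

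**Figure D3:**
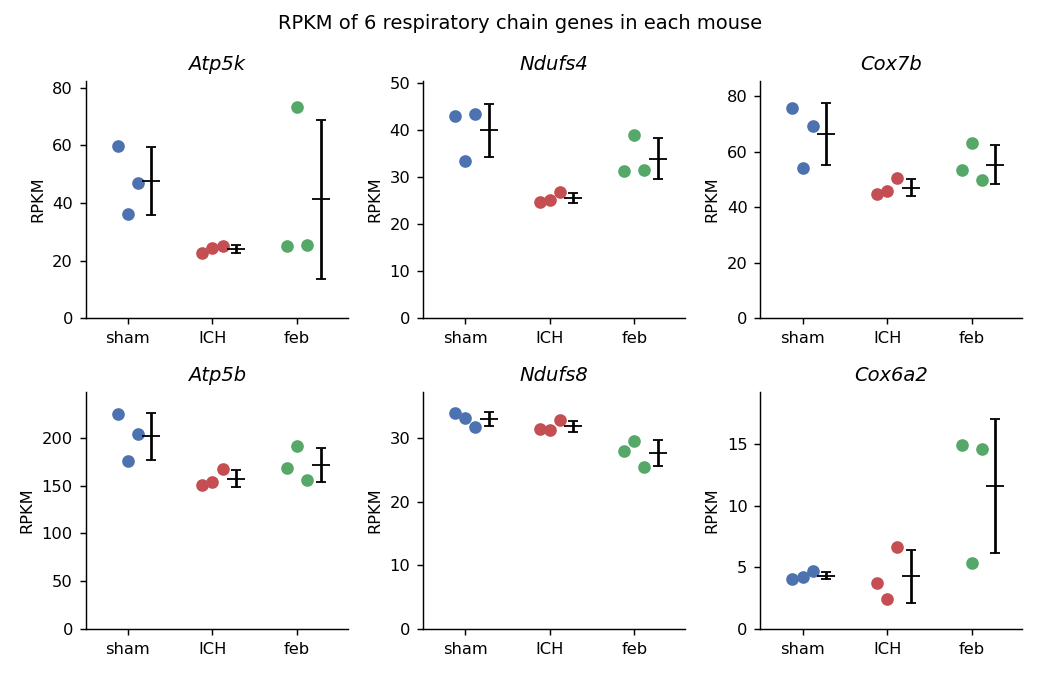
RPKM of 6 genes in each mouse of the sham, ICH and feb groups, with the group mean and SD (n = 3) beside the points. Atp5k, Ndufs4, Cox7b and Atp5b are lower in all ICH mice than in all sham mice, Ndufs8 is lowest in the 3 feb mice, and Cox6a2 is high in feb mice 1 and 3 with 14.9 and 14.6.

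The number of genes called rested on single mice. The count of genes that fell was 8 (10.1%) without sham mouse 1, where 2.42% of all genes tested fell, and 11 (13.9%) without sham mouse 3, where 2.43% did. Without ICH mouse 1 it was 11, without ICH mouse 2 it was 12, and without ICH mouse 3 it was 16, beside 4.10%, 2.63% and 4.44% of all genes tested. Without sham mouse 2, 36 genes fell (45.6%), where 6.61% of all genes tested did, and the adjusted p of Ndufs4 was 0.047 (limma), its lowest in alternatives that ranged up to 0.733. Atp5b, Atp5j, Cox7b, Ndufa10, Ndufa11, Ndufb8 and Ndufs4 were called without each mouse and under every other setting. With medians set equal between the mice, 4.08% of all genes tested rose and 7.02% fell, and of the 79 genes none rose and 30 fell. The differences given here are thus relative to how each library is scaled, and with equal medians the median of the 79 genes was -0.27 and that of all genes -0.02.

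**Figure D4:**
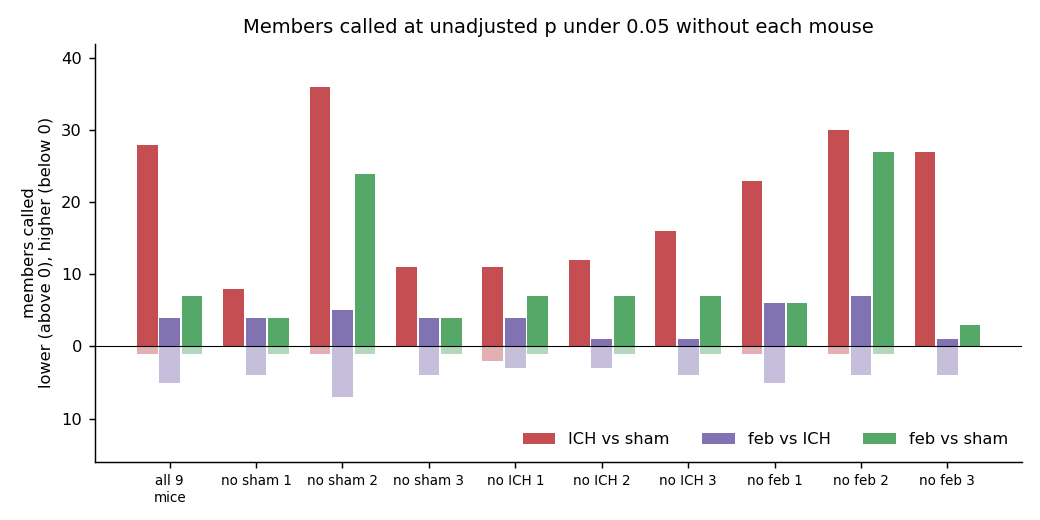
Bars give the number of the 79 genes with an unadjusted p under 0.05 in limma when all 9 mice are fitted and when 1 mouse is left out, lower above the line and higher below it, for the 3 comparisons. Leaving out sham mouse 1 or 3 gives 8 or 11 lower genes in ICH against sham, and leaving out sham mouse 2 or feb mouse 2 gives 24 or 27 in feb against sham.

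Cell type markers were compared because the makeup of the tissue could differ between groups. Beside the marker counts, 7.88% of all genes tested rose and 4.42% fell in ICH against sham mice. Neuronal markers were strongly expressed in all 9 mice, as a brain label requires, with Snap25 between 196 and 272 RPKM. In ICH against sham mice, 3 of 6 neuronal markers rose and none fell, among them Slc17a7, a marker of cortical excitatory neurons, from 18.5, 17.9 and 11.9 to 45.2, 66.2 and 32.6. Of 3 markers of fast-spiking interneurons, cells rich in mitochondria, Pvalb and Kcnc1 fell, Pvalb from 63.3, 33.4 and 41.6 to 15.4, 22.2 and 38.0. The summed RPKM of the 6 neuronal markers was between 401 and 460 in sham mice and between 462 and 502 in ICH mice, and that of the 3 interneuron markers between 57.5 and 87.9 and between 37.4 and 59.7. All 5 oligodendrocyte markers had differences below 0, between -0.42 and -0.30, and none was called in limma at an unadjusted p under 0.05. Their summed RPKM was between 464 and 669 in sham mice and between 361 and 637 in ICH mice. Of 6 microglia or macrophage markers, 2 rose, and their summed RPKM was between 26.9 and 35.4 in sham mice and between 31.8 and 53.3 in ICH mice. Single ICH libraries stood apart in other lists, in which no marker was called in limma at an unadjusted p under 0.05. The 5 astrocyte markers summed to 736 in ICH mouse 2 and to between 183 and 311 in the other mice, and the 5 blood markers to 124 in ICH mouse 1 and to between 17.1 and 40.6 in the other mice. The part of these markers in the fall of the respiratory chain genes was not tested.

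Between feb and ICH mice, the number of respiratory chain genes that differed was close to that of all genes. Of the 79, 5 (6.33%) rose and 4 (5.06%) fell, where 4.9% of all genes tested rose and 6.16% fell, and the median difference was 0.03. With equal medians 3 (3.80%) rose and 1 (1.27%) fell, where 4.54% of all genes tested rose and 5.42% fell. In 9 genes every feb mouse was above every ICH mouse (11.4%, against 7.04% of all genes tested), and in 10 every feb mouse was below (12.7%, against 10.1%). Ndufs4, the gene with the lowest p in the comparison of ICH with sham mice, was higher in all feb mice than in all ICH mice, by 0.40 ± 0.13 in log2(RPKM + 0.1), with an adjusted p of 0.334 (limma). Ndufb4, Ndufv3 and Ndufa10, also of complex I, rose by between 0.23 and 0.28, while Ndufs8 and Ndufb2 of that complex fell. The 3 that rose were called in 7, 6 and 3 of the 9 fits that leave out a mouse. In Ndufa10 the ranges of feb and ICH mice overlapped. The values of Ndufv3 were 27.6, 29.4 and 28.2 in feb mice, 22.4, 22.7 and 25.0 in ICH mice, and 29.99, 23.7 and 28.9 in sham mice. The comparisons of ICH with sham and of feb with ICH share the ICH mice, so a gene that is low in these mice by chance would fall in the first and rise in the second. Ndufs4, Ndufa10 and Ndufv3 fell in the first and rose in the second. The share of all genes tested that did so was not counted.

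Lower in feb than in ICH mice were Ndufs8, Ndufb2, Cox6b1 and Cox7c. Ndufs8, a core subunit of complex I that carries iron-sulfur clusters, had RPKM values of 27.9, 29.5 and 25.4 in feb mice, 31.5, 31.3 and 32.9 in ICH mice, and 34.0, 33.2 and 31.8 in sham mice. The feb mice were below both other groups, by 0.21 ± 0.07 against ICH and by 0.26 ± 0.07 against sham mice on the log2 scale. Ndufb2 had 3.68, 3.61 and 3.36 in feb mice, below all ICH and sham mice, but its exons share bases with Gm42420 on the same strand and with Braf on the opposite strand. Cox7c, the gene that rose in ICH mice, had 26.6, 20.7 and 24.5 in feb mice, all below the ICH mice and close to the sham mice. Its lowest ICH value, 26.7, was only just above the highest feb value. Of the 9 fits that leave out a mouse, its rise in ICH was called in 4 and its fall in feb mice in 6. Both comparisons share the ICH mice, so a gene high in these by chance would rise and then fall. Cox6b1, a subunit on the outer face of complex IV, fell by 0.19 ± 0.07. No gene of the 79 passed an adjusted p of 0.05 in limma in this comparison, which 0.00689% of all genes tested did, and without single mice the number called was between 4 and 12.

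Cox6a2 was the only gene of the 79 that met the criterion of the study, applied here in limma, in a comparison. This isoform of a complex IV subunit is typical of heart and skeletal muscle, and in the brain it is known from parvalbumin interneurons. Its RPKM was 14.9, 5.30 and 14.6 in feb mice, 3.72, 2.46 and 6.63 in ICH mice, and 4.08, 4.22 and 4.66 in sham mice. Feb mouse 2 lay inside the range of the ICH group, and the other feb mice were above all mice of the other groups. The difference was 1.39 ± 0.44 between feb and ICH mice (adjusted p 0.338, limma) and 1.26 ± 0.44 between feb and sham mice (adjusted p 0.565). It made 1 of 79 genes in each of these comparisons, where 2.43% and 2.2% of all genes tested met the criterion. The counts behind it were 268, 91 and 229 reads in feb mice. Pvalb, measured beside it, had 36.2, 29.6 and 27.2 RPKM in feb mice against 15.4, 22.2 and 38.0 in ICH mice and 63.3, 33.4 and 41.6 in sham mice. Of 6 markers of smooth or skeletal muscle none was called in either comparison in limma at an unadjusted p under 0.05, and their summed RPKM was 20.4, 42.3 and 26.1 in feb mice.

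Between feb and sham mice, respiratory chain genes differed mostly downwards, and the number called rested on single mice. Of the 79 genes, 7 (8.86%) were lower in feb than in sham mice and 1 (1.27%), Cox6a2, was higher, where 2.9% of all genes tested were lower and 5.63% higher. In 11 genes (13.9%) every feb mouse was below every sham mouse, against 4.9% of all genes tested, and in 1 (1.27%) every feb mouse was above, against 7.78%. None passed an adjusted p of 0.05 in limma, which 0.00345% of all genes tested did. The median difference was -0.13 for the 79 genes and 0.05 for all genes. Without feb mouse 2, 27 genes were lower, where 5.24% of all genes tested were. Without sham mouse 2, 24 were lower (4.29% of all genes), without sham mouse 1 or sham mouse 3 there were 4 each (1.69% and 1.64%), and without feb mouse 3 there were 3 (1.51%). Equal medians moved the median of all genes to -0.05 and that of the 79 genes to -0.25, and 20 of the 79 were then lower, where 5.10% of all genes tested were.

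The 7 genes lower in feb than in sham mice were Ndufs8, Ndufb2, Sdhc, Cox4i2, Cox6c, Atp5e and Atp5h. Atp5e had 3.38, 5.504 and 3.56 RPKM in feb mice against 6.38, 5.71 and 6.00 in sham mice, a difference of -0.56 ± 0.17. Sdhc had 11.7, 12.3 and 10.4 against 14.9, 13.1 and 15.0, a difference of -0.32 ± 0.09. Atp5e, Ndufs8 and Sdhc were called without each of the 9 mice and under every other setting. Ranges of feb and sham mice overlapped in Cox6c, at 31.1, 32.1 and 27.5 against 38.6, 31.8 and 37.1, and not in the other 6. Sdhc, Cox4i2, Cox6c, Atp5e and Atp5h had also fallen in ICH mice, and both comparisons use the same sham mice. How many of all genes tested were lower in both was not counted.

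Choroid plexus markers set the feb mice apart from both other groups. All 8 were lower in feb mice in both comparisons, and their summed RPKM was 30.6, 56.1 and 88.4 in feb mice, between 458 and 967 in ICH mice and between 365 and 1035 in sham mice. In ICH against sham mice none of the 8 was called in limma at an unadjusted p under 0.05. In feb against ICH mice, 4 of 5 blood markers, 3 of 4 endothelial markers, 4 of 6 microglia or macrophage markers, 1 of 6 neuronal markers and 1 of 5 astrocyte markers were also lower. In feb against sham mice, 3 of 5 blood markers and 3 of 4 endothelial markers were lower. So were 1 of 5 oligodendrocyte and 1 of 5 astrocyte markers, while 1 of 6 neuronal markers was higher. All 5 oligodendrocyte markers had differences below 0 there, with a median of -0.55. Of all genes tested, 6.16% were lower in feb against ICH mice, and 2.9% lower and 5.63% higher in feb against sham mice. Choroid plexus epithelium is rich in mitochondria, and the part of these markers in the values of the feb mice was not tested.

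The levels were also summarised for each mouse. The mean log2(RPKM + 0.1) of the 79 genes was 4.61, 4.42 and 4.56 in sham mice. ICH mice had 4.35, 4.34 and 4.41, and feb mice had 4.39, 4.49 and 4.33. Sham mouse 2 lay just above the highest ICH mouse, and the summed RPKM of the 79 genes overlapped, at 2817 in sham mouse 2 and 2849 in ICH mouse 3. The share of all reads on these genes was between 0.531% and 0.629% in sham mice, between 0.504% and 0.535% in ICH mice and between 0.515% and 0.553% in feb mice. Complex III had the widest range, from 5.03 in feb mouse 3 to 5.46 in sham mouse 1. Complex II had a mean of 4.51 in feb mice, below its 4.57 in ICH mice, while the other complexes had higher means in feb than in ICH mice, and in feb mouse 2 it stood at 4.48, about as low as in feb mouse 3 (4.47). As a description over 9 mice, which share groups and libraries, the correlation of a gene with the mean of the other 78 had a median of 0.68, and it was above 0.8 in 33 of the 79 genes (41.8%) and, with the mean of all 79, in 3.59% of all genes tested. Ndufs5, Ndufb10 and Atp5b followed the others most closely, at 0.99 each. Cox7c (-0.63), Atp5g2 (-0.59) and Sdhb (-0.50) ran opposite to the others.

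**Figure D5:**
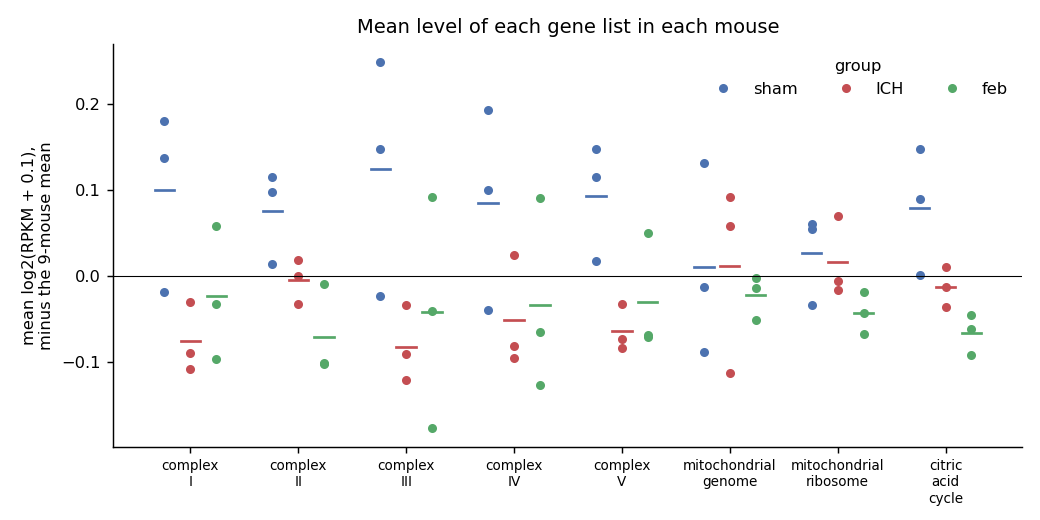
Points are the mean log2(RPKM + 0.1) of each gene list in each mouse minus the mean of the 9 mice, and short lines are group means (n = 3). In complexes I to V the ICH means lie below the sham means, the means of the mitochondrial genome nearly coincide, and the citric acid cycle is lowest in the 3 feb mice.

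Isoform pairs of complex IV were compared as ratios within a mouse. Shares in percent are free of library scaling, whereas the tested log2 ratios add 0.1 to each RPKM and are not fully so for low isoforms. Cox6a2 made up 29.7%, 13.2% and 31.9% of the Cox6a RPKM in feb mice, between 6.31% and 14.2% in ICH mice and between 11.4% and 13.2% in sham mice. Cox4i2 made up 2.41%, 1.71% and 1.69% of the Cox4i RPKM in sham mice and 1.60%, 1.26% and 1.29% in ICH mice, ranges that do not overlap. Cox7a1, the heart and muscle isoform, made up between 10.3% and 15.2% of the Cox7a RPKM in the 9 mice. In 15 comparisons over 5 pairs (Cox4i, Cox6a, Cox6b, Cox7a and Cox8), the exact two-sided permutation test gave its smallest possible p of 0.1 for 4, with an adjusted p of 0.375, and none could pass 0.05 with 3 mice a group.

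Other genes of mitochondrial respiration were counted in the same way. Beside these counts, 4.42% of all genes tested fell and 7.88% rose in ICH against sham mice, and 2.9% were lower in feb against sham mice. Of the 13 protein-coding genes of the mitochondrial genome, which supply the remaining subunits, 2 fell in ICH mice, mt-Nd6 and mt-Atp6, and the median difference was 0.02, which turned to -0.09 with equal medians. mt-Nd6 had 2176, 1845 and 2104 RPKM in sham mice and 1462, 1576 and 1633 in ICH mice. Of 5 respiratory genes that the name rule misses, 1 fell in ICH mice, Cyc1, the cytochrome c1 of complex III, by 0.26 ± 0.09. Assembly factors gave 1 lower and 1 higher of 14 for complex I, 1 lower of 12 for complex IV, and 2 lower of 13 for complexes II, III and V. Tmem126b, which builds the membrane arm of complex I, was the assembly factor with the lowest p, at -0.49. Of 11 regulators of mitochondrial biogenesis, 1 rose, the nuclear receptor Esrra, and Ppargc1a, Nrf1, Gabpa, Tfam and Yy1 were not called, with differences between -0.24 and 0.05. Citric acid cycle genes gave 1 lower of 13 in ICH mice, Sucla2, and 5 lower of 13 in feb against sham mice, among them Cs, citrate synthase, with 28.8, 29.3 and 27.3 RPKM in feb mice against 32.3, 33.7 and 32.8 in sham mice. Mitochondrial ribosomal proteins gave 3 lower (3.85%) and 2 higher of 78 in ICH mice, with a median of -0.03. Cytosolic ribosomal proteins gave 3 lower (3.53%) and 7 higher of 85, with a median of 0.08, which turned to -0.03 with equal medians. Whether these lists differ from the respiratory chain genes was not tested.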

How the data were processed

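RNA of 9 brain samples (3 sham, 3 ICH, 3 feb) was sequenced after rRNA depletion with a stranded UMI kit. The authors trimmed reads (Trimmomatic 0.36), collapsed UMI families, aligned to GRCm38, counted reads with featureCounts (Subread 1.5.1) and deposited RPKM values per gene and mouse. Gene positions and exon lengths in bases are in the same deposited table. The strand setting of the counting is not given in the sources used here. In every mouse, 100% of the values above 0 were whole multiples of 1 read within 0.1 read, so reads were recovered.

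Differences were tested with limma 3.58.1 (R 4.3.3; lmFit, eBayes with trend) on log2(RPKM + 0.1), in 29025 genes that had an RPKM of 0.1 or more in 3 or more samples. All 9 samples were in 1 fit, with no block. A fold change on this scale understates that of low genes. The p-values were adjusted by Benjamini-Hochberg over all genes tested. The script was checked on simulated reads. Isoform ratios were compared by exact permutation tests. Counting and permutation used Python 3.11.15 (scipy 1.17.1, pandas 2.3.3, numpy 2.4.6).

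The members and lists were chosen with earlier results of these data known. Values of 1 member are not reported here, though it is in the counts. Genes were named as core subunits, isoform pairs, the most abundant of each complex, the largest called changes without overlap, the lowest p of each complex, and genes beside the RPKM minimum, and a few others were named after their values were seen. Alternatives were pseudocounts of 1 and 0.01, other filters, equal medians, quantile normalization, removal of an exon length trend, a fit of 2 groups, no eBayes trend, voom on recovered reads, a replicate block and each mouse left out; removal of a length and GC trend was added after the data were seen.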

Additional observations from a re-analysis of the deposited data

How the results depend on the processing

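In ICH against sham mice, 29 genes were called, and 15, all lower, without the eBayes trend (3.75% of all genes tested lower), with a range of 8 to 37 without single mice; the median was -0.16, and -0.27 with equal medians and -0.24 without the exon length trend (-0.21 to -0.10 without single mice). In feb against ICH mice, 9 were called, 4 with equal medians and 5 without the eBayes trend (all genes 4.60% higher, 5.66% lower; 4 to 12 without single mice), and the median was between -0.0005 and 0.06 without single mice. In feb against sham mice, 8 were called, 21 with equal medians, 14 after quantile normalization (13 lower, all genes 4.36%), 21 without the exon length trend and 21 without a length and GC trend, an alternative chosen after seeing the data (20 lower in each of the 3 fits with 21; all genes 5.10%, 4.57% and 4.49% lower; 3 to 28 without single mice). The median there was -0.25 with equal medians and -0.22 without the exon length trend (-0.18 to -0.09 without single mice). The log2 ratio of Cox8b to Cox8a, which rests on 0 to 9 reads of Cox8b, differed by -1.63 between feb and ICH mice and by -1.62 between feb and sham mice, by -0.45 and -0.39 with a pseudocount of 1, and by -2.87 and -2.90 with a pseudocount of 0.01. With the replicate number as a block, 14 genes, all lower, were called in ICH against sham mice (all genes 5.99% higher, 3.55% lower), 7 in feb against ICH (4.34%, 4.82%) and 8 in feb against sham mice (4.38%, 2.04%). Samples that share a number did not deviate together (correlations between -0.25 and 0.06), so the numbers were not taken as pairs. The causes of these shifts were not tested.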
